A study of Mus musculus with 16 samples.

Results

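Public CDR3s are described here in the TCR α-chain repertoire of mouse CD8 T cells. They were chosen by presence alone: a CDR3 was taken as public when its amino acid sequence had at least 1 read in 6 or more of the 8 libraries made from all CD8 cells. Of the 47874 distinct CDR3s, 395 met this rule. Among them, 235 were read in 6 libraries, 114 in 7 and 46 in all 8. They were compared with the 39214 CDR3s that were read in 1 library.

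The cells were SP CD8 thymocytes or CD8 T cells from lymph nodes (LN), taken from Themis+/+ or Themis-/- mice. There were 2 libraries for each genotype and tissue, 4 groups in all. Both genotypes were on the C57BL/6 background and carried a Foxp3-GFP reporter, and no age is given for them. Themis is a protein of the T cell lineage that sets thresholds of thymic selection, and it was absent from the germline in the mutant, so the gene was missing in thymus and periphery alike. According to the methods, nodes from several animals of a genotype were combined, whereas the deposited design ties each dataset to 1 mouse. The spread between libraries of a group, and every p-value given here, may therefore be technical. The paper's legend for its TCR sequencing figure states that 2 separate experiments were combined per genotype. Whether the libraries of a group came from different experiments is not stated, so their spread may also hold such a difference. A further 8 libraries held cells sorted for Vα3.2, of the TRAV9 family, from the same genotypes and tissues (1 label field names another Vα), and were not used by the rule.

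The α-chain CDR3 is the loop at the join of a V and a J segment. Recombination trims the segment ends, and terminal transferase may add N bases that neither segment encodes. A sequence that needs no N base can arise in many cells of many animals, and several nucleotide sequences can encode 1 amino acid CDR3, which is known as convergent recombination.

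The most abundant public CDR3 shows both properties. The leading nucleotide sequence of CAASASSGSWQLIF, an exact join of TRAV14N-1 and TRAJ22 with no added base, is shown first, followed by the 5 next most abundant sequences that encode the same residues and match the germline J segment at their end. Capitals mark the bases that differ from the first sequence.

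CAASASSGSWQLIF leading sequence: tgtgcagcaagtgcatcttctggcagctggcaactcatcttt
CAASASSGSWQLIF with A15G: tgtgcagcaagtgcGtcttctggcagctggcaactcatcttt
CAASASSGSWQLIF with T12C: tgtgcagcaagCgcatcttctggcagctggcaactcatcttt
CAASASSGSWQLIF with A15T: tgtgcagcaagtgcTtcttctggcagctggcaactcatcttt
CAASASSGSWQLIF with A6T: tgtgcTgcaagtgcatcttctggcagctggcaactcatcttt
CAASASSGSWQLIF with A10T,G11C: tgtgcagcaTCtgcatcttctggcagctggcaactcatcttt

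Positions are counted from 1 at the 5′ end of the CDR3, with the base of the leading sequence first. In the leading sequence the first 13 bases matched the V segment exactly and the last 29 the J segment, which accounts for all 42. It was read in all 8 libraries and held 3761 of the 4761 reads of this CDR3. The sequence with A6T was also an exact join, of TRAV5D-4 with TRAJ22, which shows that different V segments can encode the same CDR3. TRAJ22 lies on chromosome 14 of GRCm38 from 54197248 to 54197307 on the plus strand and is annotated as a TCR J gene segment.

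The libraries of all CD8 cells differed from the sorted ones at the 3′ end of the CDR3, and this touches every count that follows. In the last 9 bases, 30.2% to 36.7% of their reads carried a substitution against the germline J segment (49.8% to 57.1% of nucleotide sequences), against 0.00927% to 0.177% of reads in the sorted libraries. T-to-G changes were carried by 26.6% to 32.1% of reads in the libraries of all CD8 cells and by 0% to 0.00967% in the sorted ones. The lowest base quality listed for a CDR3 was 21 in the former and 29 to 32 in the latter. T cells do not mutate rearranged receptor genes somatically. Results are therefore also given without these sequences, which are called J-substituted below, and the cause of the substitutions was not tested. The libraries of all CD8 cells held 57455 to 146191 reads and 3532 to 13133 distinct CDR3s.

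J-substituted sequences formed a distinct subset of the public CDR3s. All sequences of 103 of the 395 (26.1%) were J-substituted. For each of the 103, restoring the germline bases gave a CDR3 that was also read, and for 94 that partner was itself public. The second most abundant public CDR3, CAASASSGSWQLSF, was such a case and is shown with its partner, with capitals at the differing base, which is T38G.

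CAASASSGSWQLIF: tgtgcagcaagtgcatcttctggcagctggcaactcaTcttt
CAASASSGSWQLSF: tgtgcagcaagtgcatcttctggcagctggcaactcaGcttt

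The same change separated the pair of CDR3s joined to TRAJ23 that had ranks 3 and 12 in mean share.

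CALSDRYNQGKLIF: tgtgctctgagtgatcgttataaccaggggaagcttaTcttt
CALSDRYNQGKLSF: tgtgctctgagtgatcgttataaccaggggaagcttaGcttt

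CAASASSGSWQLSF held 0.370 to 0.528 times the reads of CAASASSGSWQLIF in the 8 libraries, and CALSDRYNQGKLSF 0.284 to 0.467 times those of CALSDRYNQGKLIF. Over all 103, the median ratio to the partner lay between 0.326 and 0.432 in every library, and for 102 of the 103 the median over libraries was below 1. The leading sequence of 90 differed from its restored form by a single T-to-G change, that of 6 by 2 T-to-G changes, that of 6 by a G-to-T change and that of 1 by an A-to-T change. None of the 103 was read in a sorted library, against 91 of the other 292 public CDR3s (31.2%). J-substituted reads made up only 0.00927% to 0.177% of the sorted libraries, so CDR3s seen in this form alone could hardly appear there. The sorted cells also mostly carry 1 V segment. This count is therefore a description of those libraries, and nothing further is read from it.

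**Figure D1:**
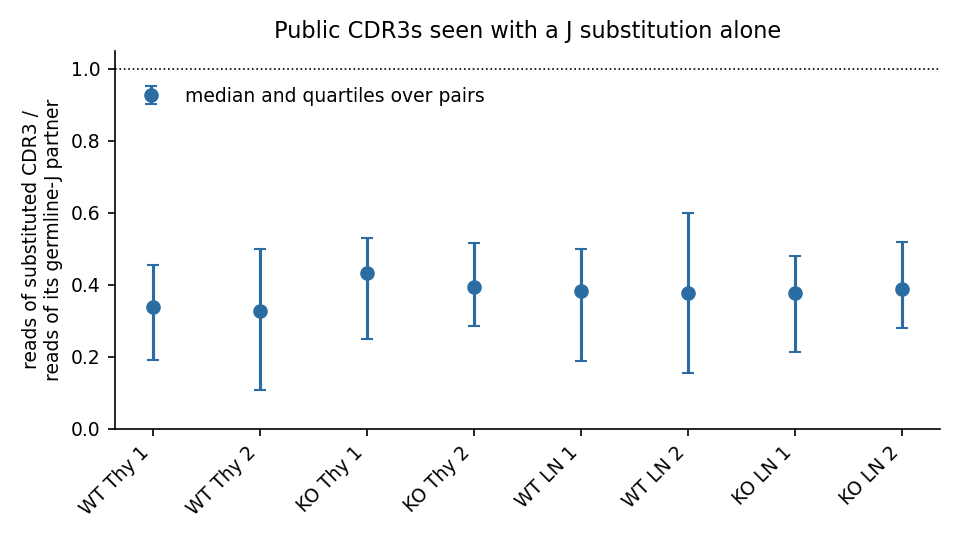
Reads of each of the 103 public CDR3s seen with a J substitution alone, divided by the reads of the CDR3 with the germline J bases, in each library of all CD8 cells (WT, Themis+/+; KO, Themis-/-; Thy, thymus; LN, lymph node). Points are medians over the pairs whose partner was read in that library and bars run from the lower to the upper quartile; medians lie between 0.326 and 0.432, below the dotted line at 1.

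Leaving out the J-substituted sequences left 265 public CDR3s of 24685, and all 265 belonged to the 395. Restoring the germline bases and summing the reads gave 348, of which 292 belonged to the 395. Sharing fell steeply with each further library in either form, from 39214 CDR3s in 1 library to 5242 in 2, 404 in 5 and 46 in 8 with all reads, and from 19507 to 3049, 264 and 33 without J-substituted sequences. Few nucleotide sequences were shared to the same extent, since 94 were read in 6 or more libraries. Just outside the rule, the 404 CDR3s in 5 libraries had a median of 78 reads over the 8 libraries and 5 nucleotide sequences, and the 235 just inside it, in 6 libraries, had 115 reads and 5 nucleotide sequences.

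**Figure D2:**
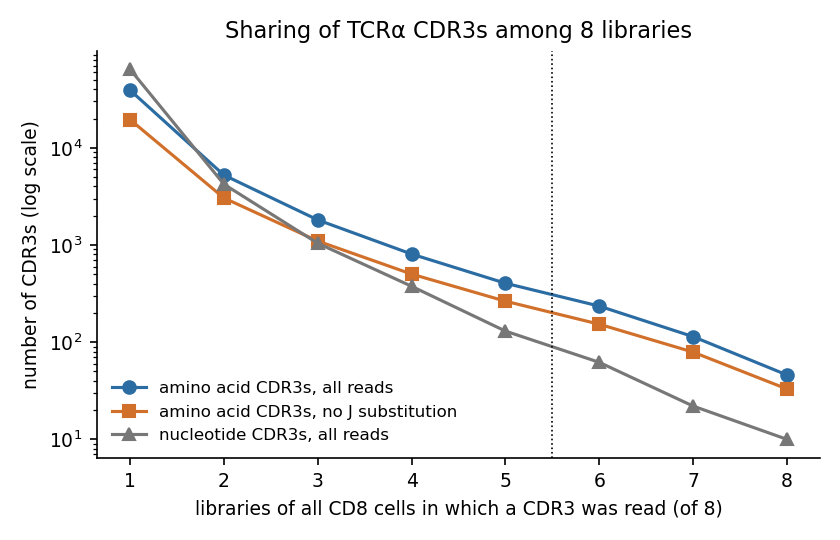
Number of CDR3s (log scale) by the number of libraries of all CD8 cells in which they were read. Lines show amino acid CDR3s with all reads, amino acid CDR3s without J-substituted sequences and nucleotide CDR3s; the dotted line marks the rule of 6 libraries, to the right of which lie 235, 114 and 46 amino acid CDR3s.

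Public CDR3s carried fewer N bases than CDR3s of 1 library. Over their 2703 nucleotide sequences the mean was 0.833 ± 1.23 N bases (SD) and the median 0, against 2.61 ± 2.50 and 2 over 45345 sequences of CDR3s in 1 library. Sequences with 0 N bases made up 57.7% of the former and 23.6% of the latter. Without J-substituted sequences these shares were 54.6% and 21.9%. Of the 395 public CDR3s, 351 (88.9%) had at least 1 nucleotide sequence with 0 N bases, against 23.9% of the CDR3s in 1 library. A CDR3 with more nucleotide sequences has more chances of such a match, so these last shares are not on an equal footing. N bases were not used by the rule, but reads and sharing were, so these values are given without a test.

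The difference in N bases was present in each library. In the 8 libraries, 62.1% to 69.6% of the sequences of public CDR3s had 0 N bases, while 22.9% to 25.9% of those of CDR3s in 1 library did, and the ranges did not overlap. By group, the share for public CDR3s was 65.3% ± 2.4 in Themis+/+ thymus, 65.3% ± 1.7 in Themis-/- thymus, 66.3% ± 4.7 in Themis+/+ LN and 64.6% ± 3.5 in Themis-/- LN (SD, n = 2 libraries each). The group means differed by less than the SD of Themis+/+ LN. The share of sequences with 0 N bases was 54.1% for CDR3s in 5 libraries, 34.2% for those in 2 and 60.5% for those in 8.

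N bases as assigned by the aligner can be hidden where a segment end is extended, so the CDR3s without J-substituted sequences were also matched base by base to the segments of GENCODE release M21. By this stricter match, 1.82 ± 1.85 bases (SD) of a public sequence and 4.17 ± 3.41 of a sequence of a CDR3 in 1 library lay outside both segments. A complete germline origin was possible for 26.9% of the 1493 public sequences and for 4.90% of the 19408 others whose segments were found. Among the most abundant sequences of the 292 public CDR3s with a germline J end, 139 (47.6%) had no base outside the segments, 102 had 1 or 2 and 51 had 3 or more.

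**Figure D3:**
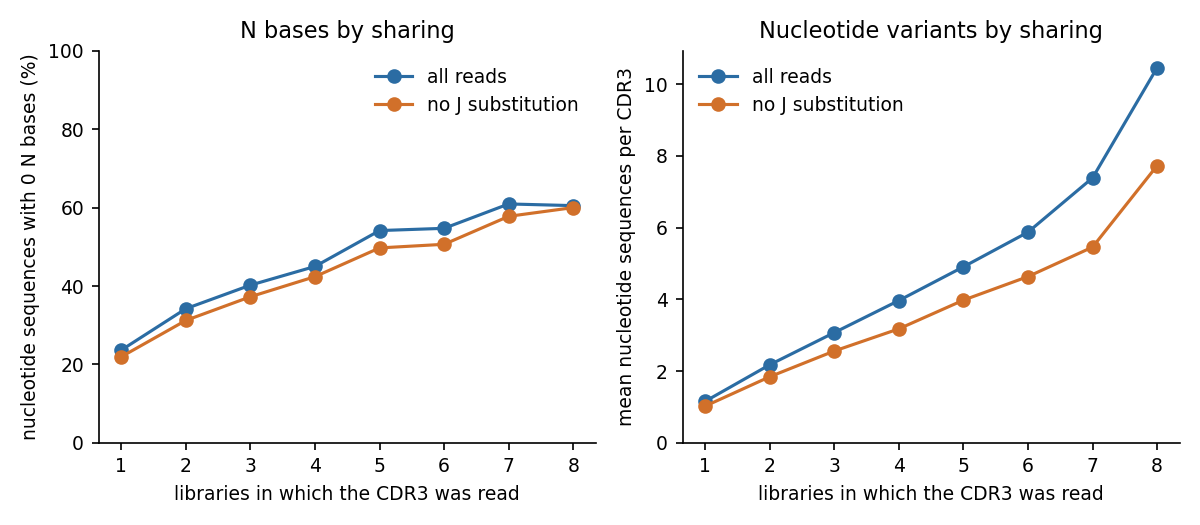
Left, share of distinct nucleotide sequences with 0 N bases; right, mean number of nucleotide sequences per amino acid CDR3, both by the number of libraries of all CD8 cells in which the CDR3 was read. With all reads the left values run from 23.6% in 1 library to 60.5% in 8 libraries, and the right values from 1.16 to 10.5.

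Several of the 10 most abundant public CDR3s were exact germline joins. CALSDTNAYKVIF joined TRAV12N-2 to TRAJ30, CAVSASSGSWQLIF joined TRAV3N-3 to TRAJ22, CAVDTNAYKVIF joined TRAV3N-3 to TRAJ30, and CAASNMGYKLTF and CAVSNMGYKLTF joined TRAV7 segments to TRAJ9. Their leading sequences are shown because no base in them lies outside the 2 segments.

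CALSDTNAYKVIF: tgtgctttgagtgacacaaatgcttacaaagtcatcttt
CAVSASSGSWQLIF: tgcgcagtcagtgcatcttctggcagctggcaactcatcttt
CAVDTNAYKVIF: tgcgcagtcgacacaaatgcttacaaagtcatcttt
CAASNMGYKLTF: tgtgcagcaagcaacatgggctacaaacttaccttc
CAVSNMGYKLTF: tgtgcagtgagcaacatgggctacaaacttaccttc

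The others of the 10 that kept a germline J end had a few bases outside both segments by the exact match, which are in capitals here. The aligner counted 2 N bases in the first of them and 0 in the others. All 3 used TRAV12N-3, and the bases lay at the join, from the end of the aspartate codon into the next one.

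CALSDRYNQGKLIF: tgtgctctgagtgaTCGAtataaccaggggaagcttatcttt
CALSDRYSNNRLTL: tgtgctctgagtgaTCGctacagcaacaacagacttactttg
CALSDNYSNNRLTL: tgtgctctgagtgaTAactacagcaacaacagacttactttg

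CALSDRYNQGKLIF was encoded by alternative codons for that residue. Its 3 leading sequences held 285, 281 and 248 reads and were found in 8, 7 and 6 libraries. Relative to the first, the second had A18T and the third A18G.

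Public CDR3s had many nucleotide sequences each. The mean was 6.84 ± 3.66 (SD) and the highest 24, against 1.16 ± 0.43 for CDR3s in 1 library. Without J-substituted sequences the means were 5.26 and 1.02. Being read in 6 libraries gives a CDR3 more occasions to show another nucleotide sequence, so the number within 1 library is the closer measure. It is still not on an equal footing, since public CDR3s had more reads within a library. Their median was 11 to 22 reads, against 4 to 6 for CDR3s in 1 library. Within 1 library the mean number per public CDR3 was 2.50 and 1.86 in Themis+/+ thymus, 2.21 and 2.23 in Themis-/- thymus, 2.10 and 1.59 in Themis+/+ LN and 1.67 and 1.70 in Themis-/- LN. The lowest values came from libraries with the fewest distinct CDR3s, and the part of depth in this was not tested. CDR3s in 1 library had 1.13 to 1.18 nucleotide sequences in the same libraries. Without J-substituted sequences the means were 1.29 to 2.09 for public CDR3s and 1.01 to 1.03 for those in 1 library.

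The 5 public CDR3s with the most nucleotide sequences were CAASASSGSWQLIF with 24, CALSDRYSNNRLTL with 23, CAAPDYSNNRLTL with 22, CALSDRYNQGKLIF with 19 and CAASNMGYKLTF with 18. Leaving out J-substituted sequences left 19, 5, 5, 10 and 10. The pair joined to TRAJ7 thus owed most of its variety to the last 9 bases, while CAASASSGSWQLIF kept most of its own. Of the 2703 nucleotide sequences of public CDR3s, 1552 (57.4%) were read in 1 library, and in 81 of the 395 public CDR3s a single nucleotide sequence was itself found in 6 or more libraries. For 322 of the 395 (81.5%) the nucleotide sequences were assigned to more than 1 V family, against 0.663% of CDR3s in 1 library. These shares are not on an equal footing. Of the CDR3s in 1 library, 86.5% had 1 nucleotide sequence, which could be assigned to only 1 V family. None of the 395 had more than 1 J segment. When V and J segment were required to match as well as the amino acids, 24 were read in 6 or more libraries. Mouse TRAV families contain near-identical copies whose assignment from the CDR3 side can be uncertain.

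Public CDR3s were shorter than those of 1 library. The mean length was 13.2 ± 1.1 residues (SD) and the median 13, against 13.7 ± 1.6 and 14. CDR3s of 15 or more residues made up 8.61% of the public ones and 28.1% of those in 1 library, and without J-substituted sequences 8.68% and 33.2%. CDR3s of 11 or fewer residues were about as common in both, at 6.08% and 7.62%.

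J segments were used unevenly. TRAJ22 joined 71 of the 395 public CDR3s (17.97%) and 4.02% of those in 1 library, a ratio of 4.47. TRAJ30 (39 CDR3s, ratio 2.59), TRAJ12 (38, ratio 2.42), TRAJ26 (31, ratio 1.99) and TRAJ23 (28, ratio 2.06) followed. TRAJ31 (22) and TRAJ15 (18) had ratios of 0.995 and 1.46, and TRAJ7 (14) had 2.93. At the other end, TRAJ35, TRAJ58 and TRAJ38 were the segments of at least 1% of either set that joined no public CDR3, while making up 1.56%, 1.49% and 1.43% of CDR3s in 1 library, and TRAJ57 and TRAJ39 joined 1 each, with ratios of 0.137 and 0.158. Without J-substituted sequences TRAJ22 joined 52 of 265 (19.6%), a ratio of 4.71, TRAJ12 had a ratio of 3.47 and TRAJ30 of 2.61. The ratio of TRAJ31 rose from 0.995 to 1.62 when those sequences were left out, and that of TRAJ15 from 1.46 to 1.66. The ratios of TRAJ7, TRAJ23 and TRAJ26 fell to 2.07, 1.64 and 1.86.

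**Figure D4:**
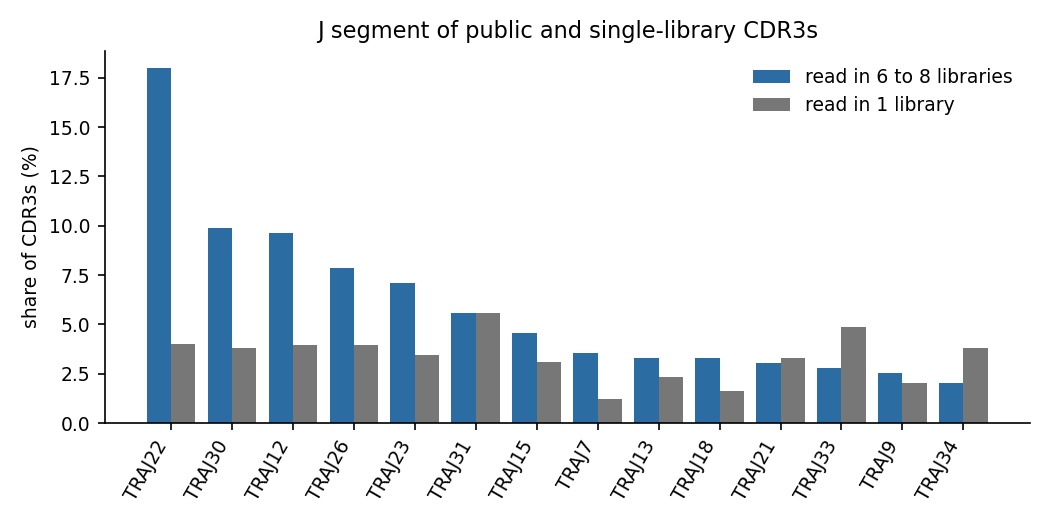
Share of public CDR3s (blue, read in 6 to 8 libraries) and of CDR3s read in 1 library (grey) that carry each of the 14 J segments with the most public CDR3s. TRAJ22 reaches 17.97% of the former and 4.02% of the latter.

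The germline sequences of TRAJ22 and TRAJ30 are shown because leading public sequences hold their 5′ ends untrimmed: that of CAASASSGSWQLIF holds the first 29 bases of TRAJ22 and that of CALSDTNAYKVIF the first 28 of TRAJ30. Both are from GENCODE M21 on GRCm38, and TRAJ30 lies on chromosome 14 from 54189866 to 54189924 on the plus strand.

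TRAJ22: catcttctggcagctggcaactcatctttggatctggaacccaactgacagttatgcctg
TRAJ30: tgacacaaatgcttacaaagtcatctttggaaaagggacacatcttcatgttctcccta

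V segments were counted by family, the family of a CDR3 being the one with most reads summed over its segments. TRAV12 contributed 92 public CDR3s (23.3%, against 15.2% of those in 1 library), TRAV7 72 (18.2% against 12.7%) and TRAV14 71 (17.97% against 9.15%). TRAV6 contributed 45 (11.4% against 13.3%), TRAV3 36, TRAV16 25, TRAV13 17 (4.30% against 9.48%) and TRAV10 10. TRAV14 had the highest ratio, 1.96, followed by TRAV12 with 1.54 and TRAV7 with 1.44. Of families with at least 1% of either set, TRAV15, TRAV21 and the δ family TRDV1 had no public CDR3 and made up 1.38%, 1.27% and 1.10% of CDR3s in 1 library. Single V segments, named here after their values were seen and with near-identical copies among them, had ratios of 6.34 for TRAV7N-5 (17 public CDR3s), 2.96 for TRAV12N-3 (37) and 0.137 for TRAV12D-3 (1). TRAV9, the family of Vα3.2, led 3 public CDR3s (0.759%, against 3.30%). The most frequent pairs were TRAV14 with TRAJ22 (17 public CDR3s), TRAV12 with TRAJ22 (14) and TRAV7 with TRAJ22 (13).

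Many public CDR3s recurred among the sorted Vα3.2 cells, which the rule did not use. Of the 395, 91 (23.0%) were read in at least 1 of the 8 sorted libraries, against 601 of the 39214 CDR3s in 1 library (1.53%) and 59 of the 404 in 5 libraries (14.6%). Of the 265 public without J-substituted sequences, 31.3% were. The matching share was not computed for CDR3s in 1 library, so 1.53% is not its counterpart. J-substituted sequences, nearly absent from the sorted libraries, made up 56.6% of the nucleotide sequences of CDR3s in 1 library and 44.8% of those of public CDR3s. Abundant CDR3s have more chances to be read again, and no test was made. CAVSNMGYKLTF was read in all 8 sorted libraries, where TRAV9N-3 led its reads, while TRAV7-3 led them in the libraries of all CD8 cells, so the same amino acids were reached from different V segments. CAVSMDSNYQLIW, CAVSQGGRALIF, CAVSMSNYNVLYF and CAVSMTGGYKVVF, chosen after their values were seen, were each read in 7 sorted libraries, and TRAV9N-3 led all 4 there. Of the 91, 40 had TRAV9 sequences in the libraries of all CD8 cells. The 3 in which the TRAV9 family held most reads, joined to TRAJ48, TRAJ18 and TRAJ12, were read in 2, 2 and 6 sorted libraries. In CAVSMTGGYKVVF and in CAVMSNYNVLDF, read in 7 and 0 sorted libraries, a TRAV9 segment held the most reads of any single segment but the TRAV7 family more in all. Public CDR3s held 5.57% to 11.1% of the reads of the sorted libraries. The far more numerous CDR3s in 1 library of all CD8 cells held 15.5% to 23.5%.

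The read share of the public CDR3s was compared between genotypes and tissues. The rule required presence in these same libraries, so the shares are descriptions and carry no test, and 2 libraries against 2 could not give a two-sided exact permutation p below 0.333. Public CDR3s held 9.99% and 8.79% of the reads in Themis+/+ thymus, 10.8% and 11.1% in Themis-/- thymus, 9.23% and 11.4% in Themis+/+ LN and 12.6% and 13.9% in Themis-/- LN. Both Themis-/- libraries lay above both Themis+/+ libraries in each tissue. The mean share was 13.2% ± 0.9 in Themis-/- LN and 10.3% ± 1.6 in Themis+/+ LN (SD, n = 2), 1.28 times higher, and 10.9% ± 0.2 against 9.39% ± 0.84 in thymus, 1.16 times higher. The log2 ratio in thymus was 0.22, and -0.095 when presence in all 8 libraries was required. LN and thymus overlapped in Themis+/+ mice, with a log2 ratio of 0.14 that was -0.029 when 7 of 8 libraries were required, while in Themis-/- mice both LN libraries lay above both thymus libraries, by 1.21 times in the means. Without the J-substituted sequences the shares were 10.99% and 9.37%, 11.7% and 12.5%, 9.98% and 12.6%, and 13.7% and 15.5% in the same order, and the order of the groups was kept.

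**Figure D5:**
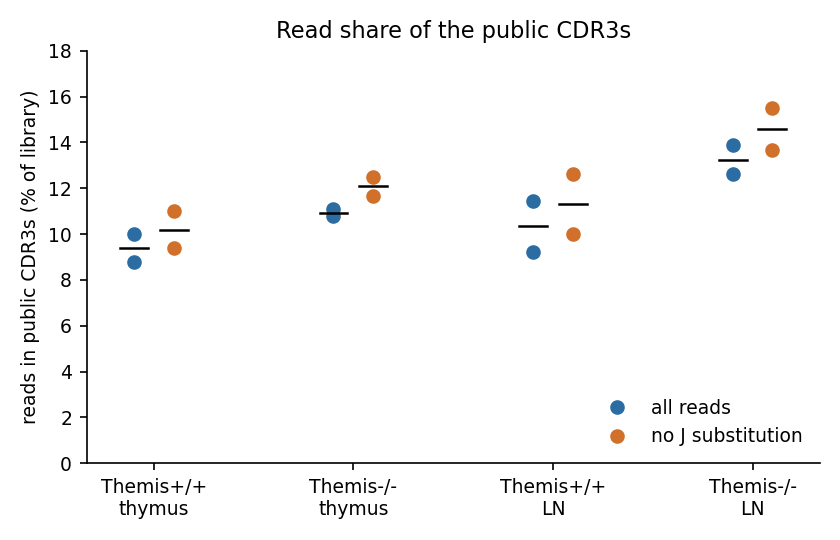
Percent of the reads of each library that fell in public CDR3s, by group, with all reads (blue) and without J-substituted sequences (orange). Points are single libraries and short black lines the means of 2; with all reads the Themis-/- LN libraries, at 12.6% and 13.9%, are the highest.

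The number of public CDR3s read in a library moved with the number of distinct CDR3s it held. Of the 395, 23 were not read in the Themis+/+ thymus library with 13133 distinct CDR3s, and 156 (39.5%) were not read in the Themis-/- LN library with 3532. All 4 thymus libraries held 251 of the 395 and all 4 LN libraries 85. The share of distinct CDR3s that were public was 6.77% and 6.68% in Themis-/- LN against 3.42% and 5.82% in Themis+/+ LN, and 3.78% and 3.79% against 2.83% and 4.14% in thymus. The part of library size in the differences of share was not tested.

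Within the 8 largest V families and J segments, the reads of public CDR3s were also summed per library. TRAJ7 public CDR3s held 0.877% and 0.903% of reads in Themis-/- LN, 0.276% and 0.352% in Themis+/+ LN, 0.370% and 0.593% in Themis-/- thymus and 0.436% and 0.332% in Themis+/+ thymus. TRAV13 public CDR3s held 0.630% and 0.615% in Themis-/- LN and 0.204% and 0.270% in Themis+/+ LN. TRAJ22 public CDR3s held 3.70% and 3.43% in Themis-/- LN and 2.39% to 3.15% in the other 6 libraries. Both Themis-/- LN libraries were the highest of the 8 for 7 of these 16 families and segments, namely TRAV12, TRAV14, TRAV13, TRAV10, TRAJ22, TRAJ30 and TRAJ7, and not for the other 9. The 7 are not separate patterns, since each CDR3 adds to its V family and to its J segment. Single CDR3s also weighed in some sums. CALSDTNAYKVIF added to TRAV12 and TRAJ30, mainly in the first Themis-/- LN library, and CALSDNYSNNRLTL to TRAV12 and TRAJ7 in both. How far the sums rest on single CDR3s was not tested.

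Single public CDR3s varied widely among libraries. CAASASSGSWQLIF held 0.559% and 0.495% of reads in Themis+/+ thymus, 0.482% and 0.554% in Themis-/- thymus, 0.653% and 0.489% in Themis+/+ LN and 0.718% and 0.805% in Themis-/- LN. Its highest share was 1.67 times its lowest, the smallest such ratio of the 46 CDR3s read in all 8 libraries, whose median was 25.7. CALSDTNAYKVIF held 0.732% in 1 Themis-/- LN library and 0.0680% in the other, and at most 0.196% elsewhere. Its Themis-/- LN libraries thus did not both lie above all others. CALSDNYSNNRLTL held 0.274% and 0.357% in Themis-/- LN, 0% and 0.0261% in Themis+/+ LN, 0.0287% and 0.0104% in Themis-/- thymus and 0% and 0.109% in Themis+/+ thymus. Its Themis-/- LN libraries thus lay above all others. Over the 395, the mean share had a median of 0.0183% and reached from 0.00226% to 0.594%.

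Reads per CDR3 were tested across all CDR3s with edgeR's quasi-likelihood test (Benjamini-Hochberg adjusted p under 0.05), on the 2569 CDR3s that reached 10 reads in 2 or more libraries. Of these 376 were public, and 19 of the 395 were left out. No CDR3 was called between genotypes in LN or thymus, between tissues in either genotype or for the interaction, so percent called over all CDR3s was 0 and 0 public CDR3s were called in each comparison. An unadjusted edgeR p under 0.05 was reached by 9 of the 376 public CDR3s and 43 of all 2569 for genotype in LN. Out of the same totals, the counts were 2 and 14 for genotype in thymus and 1 and 18 for tissue in Themis+/+. They were 8 and 33 for tissue in Themis-/- and 6 and 235 for the interaction. No enrichment of public CDR3s is read from these counts. DESeq2 called 1 CDR3 for tissue in each genotype and 0 in the other comparisons, and 0 of those called were public. With its size factors for sparse counts it called 1 CDR3 in each comparison, again 0 of them public. The spread between libraries of a group was very large, with a fitted common dispersion of 4.49, a biological coefficient of variation of 2.12. In simulated data with a spread of that size this test made no calls even for very large changes, so the absence of calls does not show that CDR3s were equal between groups. The median log2 fold change of public CDR3s was -0.43 for genotype in LN and 0.22 in thymus, against -0.51 and 0 over all CDR3s tested. With library sizes alone as scaling, the median over all CDR3s in LN moved to -0.14 and that of public CDR3s to -0.10. The sign of these medians rested on single libraries. In LN the median of public CDR3s was 0.81 without the first Themis+/+ library, -0.52 without the second, and -1.12 and -1.82 without the first and second Themis-/- libraries. In thymus it was 1.08 and -0.13 without the first and second Themis+/+ libraries, and -0.26 and 0.07 without the first and second Themis-/- libraries. No direction is therefore read from them, while the summed read share was higher in Themis-/- LN. The 10 public CDR3s with the highest share held 3.27% and 2.61% of reads in Themis-/- LN and 1.75% and 1.71% in Themis+/+ LN. They were chosen by their mean share over these same libraries, so a CDR3 high in 1 group could enter the list through that group. These values are a description and lend no support to a difference between genotypes. CALSDNYSNNRLTL had a log2 fold change of 4.44 for genotype in LN (edgeR adjusted p = 0.483), and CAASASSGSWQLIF one of -0.10 (edgeR adjusted p = 1). For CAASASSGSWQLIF the sign is opposite to that of its read shares, which were higher in both Themis-/- LN libraries. The 2 scales differ: shares are of all reads, while edgeR used the reads of tested CDR3s and library factors. These factors were 0.88 and 1.28 for Themis+/+ LN and 1.18 and 1.39 for Themis-/- LN. No direction is read for this CDR3.

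Non-overlap between 2 libraries and 2 libraries was also counted for single CDR3s. In LN, both Themis-/- libraries lay above both Themis+/+ libraries for 52 public CDR3s (13.2%) and below for 88 (22.3%), against 2.25% and 6.69% of the 8660 CDR3s read in at least 2 libraries. In thymus the counts were 70 above (17.7%) and 60 below (15.2%), against 8.83% and 10.4%. The rule gave the public CDR3s more libraries with reads than the rest, so nothing is read from the difference.

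The invariant chain of NKT cells, which pairs TRAV11 with TRAJ18, was among the public CDR3s and was read in 6 libraries. Invariant NKT cells recognise lipids on CD1d and are a lineage apart from conventional CD8 T cells. The 3 most abundant of its nucleotide sequences differ at 1 base, in capitals, which changes the codon but not the glycine.

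Invariant NKT chain, leading sequence: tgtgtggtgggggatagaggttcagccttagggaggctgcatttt
Invariant NKT chain with G12C: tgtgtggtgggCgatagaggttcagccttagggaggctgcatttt
Invariant NKT chain with G12A: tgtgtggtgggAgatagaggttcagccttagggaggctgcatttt

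The invariant NKT chain had 41 and 75 reads in Themis+/+ thymus (0.0328% and 0.0762%), 311 and 279 in Themis-/- thymus (0.213% and 0.241%), 12 and 0 in Themis+/+ LN and 0 and 3 in Themis-/- LN. Both Themis-/- thymus libraries lay above both Themis+/+ thymus libraries, and the LN libraries overlapped. The log2 fold change for genotype in thymus was 2.10 and not significant (edgeR adjusted p = 0.826), and that of LN against thymus in Themis-/- mice was -7.66 (edgeR adjusted p = 0.462). All TRAV11 with TRAJ18 sequences together held 69 and 114 reads in Themis+/+ thymus, 517 and 485 in Themis-/- thymus, 16 and 24 in Themis+/+ LN and 0 and 3 in Themis-/- LN. No public CDR3 paired TRAV1 with TRAJ33, the pair of MAIT cells, whose reads ranged from 0 to 62 per library. Sequences with δ segments held 0.193% to 1.90% of reads. Bulk counts do not tell fewer cells of a type from less RNA per cell.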

How the data were processed

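TCRα transcripts of 16 libraries were analysed, 2 per genotype, tissue and cell subset. The authors amplified cDNA made by template switching and extracted CDR3s with MiXCR (the sources used here give no version). The deposited tables, 1 per library, list nucleotide CDR3s with their read counts, not normalized, and their fraction of the reads. The deposited counts were used. The submitters' processing notes name CASAVA 1.4 and mm9; coordinates and germline segments here are from GENCODE M21 on GRCm38. No molecular identifiers are described, so reads are not independent molecules.

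The public CDR3s, lists and comparisons were chosen with earlier results of these data known. The text names the 10 CDR3s of highest mean share, the 5 with the most nucleotide sequences, and the fixed invariant pairs; segments named are the 8 V families and J segments with most public CDR3s, those with the 3 (V) and 5 (J) highest and lowest ratios among those with at least 1% of public CDR3s or of CDR3s in 1 library, and TRAV9, TRAV14, TRAV6 and TRAV12. The V family, V segment or J segment of a CDR3 is the one with most reads. N bases are those between the V and J alignments. Counts were compared with edgeR 4.0.16 (TMM, all 8 libraries of all CD8 cells, group means without an intercept) and DESeq2 1.42.0, in R 4.3.3; other values used Python 3.11.15 with pandas 2.3.3.

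Several settings were chosen with the tables in view: the window of 9 bases for J substitutions, leaving out or restoring the sequences that carry one, the definition of N bases (made with both counts in view), counting P bases, the exact match to germline segments and DESeq2 with its size factors for sparse counts. The test was checked on simulated data. Changes were recovered at a spread well below that of these libraries, while simulations with a spread nearer to and equal to the fitted one gave no calls. The setting with less spread was adopted to check the script after the first simulation had recovered none, so it says nothing about power here. Deviations of libraries with the same number had correlations of -0.02 to 0.05 between groups, and the numbers were not treated as a pairing.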

Additional observations from a re-analysis of the deposited data

How the results depend on the processing

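The number of public CDR3s followed the rule closely: 799 with 5 of 8 libraries, 160 with 7, 46 with 8, 24 with matching V and J segment and 94 as nucleotide sequences; leaving out each library and keeping 6 of 7 gave 182 to 289. The difference in median N bases was 2, and 3 without J-substituted sequences. The mean number of nucleotide sequences per public CDR3 and library was 1.98, and 2.31 with 7 of 8 libraries, 2.86 with 8 of 8 and 1.62 without J-substituted sequences. The share read in sorted libraries was 23.0%, and 31.3% without them.

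The log2 ratios of read share moved as follows. Genotype in LN (0.36) gave 0.18 with 5 of 8 libraries, 0.50 with 7 of 8 and 0.54 as share of distinct CDR3s, and 0.21 to 0.52 on leaving out each replicate. Genotype in thymus (0.22) changed sign to -0.095 with 8 of 8 libraries, and gave 0.13 to 0.31 on leaving out replicates. LN over thymus in Themis+/+ (0.14) changed sign to -0.029 with 7 of 8 libraries, gave 0.41 as share of distinct CDR3s, and ran from -0.025 to 0.28, the lowest without the second Themis+/+ LN library. LN over thymus in Themis-/- (0.28) gave 0.65 with 8 of 8 libraries, 0.83 as share of distinct CDR3s, 0.13 without the 10 CDR3s with the highest share, and 0.21 to 0.34. The causes were not tested.

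The count of public CDR3s called was 0 under each of the 14 other settings of each comparison, the replicate block among them (0). With so large a spread this says nothing about stability. Where a group was left with 1 library, that library was assumed to vary like the others.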
